A study of Mus musculus with 2 samples.

Results

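In basal cells of mouse epidermis, 701 stretches of DNA had at least 2-fold lower ATAC-seq signal after ablation of basal lineage cells than in control. In ATAC-seq the Tn5 transposase cuts and tags open chromatin, and a peak is a stretch in which the tagged ends pile up. The deposited table lists its peaks in 3 consecutive runs, each sorted by peak name. The members are nuclear peaks first listed in the third run, with a mean signal over both libraries at or above the 10th percentile of all nuclear peaks and a log2 ratio of ablation to control, with a pseudocount of 1, of -1 or less. They number 701 of the 84594 distinct peaks of the table and of the 65878 third-run peaks that reached the signal minimum, here called tested. The members were thus chosen by their ratio and signal in these same libraries, and their lower values are a description.

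Both libraries came from mouse skin epidermis, from 50000 basal cells sorted for high α6 integrin, for absence of CD34 and Lrig1, and for the YFP, GFP and RFP reporters of K14 lineage tracing. The control library was labelled wild type (WT) and the other basal lineage ablation. The driver and agent of the ablation, the time after it, and the age, sex and number of the animals were not stated in the labels. There was 1 library per group, so no spread between animals could be measured, no difference between conditions was tested, and the intervals below are 95% exact Clopper-Pearson intervals for counting error only. Basal keratinocytes lie on the basement membrane, renew the epidermis and supply the suprabasal layers that build the skin barrier. Their identity rests on promoters, which sit at gene starts and are often open in many cell types, and on enhancers, which lie between and within genes and are more often open in few cell types. Keratin 5, keratin 14, α6 integrin and p63 are their usual markers.

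Reads in nuclear peaks came to 17056996 for the control and 12463908 for the ablation library. Mitochondrial peaks made up 7.31% of all peak reads for the former and 31.2% for the latter, and the part of this gap in the ratios of the members was not tested. A peak is called a gene-end peak here when it lies no more than 1 kb from the start or end of a protein-coding gene. That end can belong to a neighbouring gene, so the values below need not be those of the named gene alone. The strongest such peak held 1381 and 1479 normalized reads at Krt14 and 423 and 443 at Krt5 in control and ablation. At the other basal genes with such a peak it held 618 and 471 for Itga6, 560 and 498 for Itgb4, and 236 and 198 for Col17a1. Trp63 had 35 peaks but none at a gene end. Of the markers of other cell types, Ptprc and Cd207, of immune cells, Pecam1 and Cdh5, of endothelium, and Pdgfra, of fibroblasts, had no gene-end peak. They still had peaks elsewhere, 1 each for Ptprc and Cd207, 18 for Pecam1, 2 for Cdh5 and 3 for Pdgfra. The T cell gene Cd3e had one with 19.8 and 24.5 normalized reads, and Col1a1, of fibroblasts, one with 219 and 198. The melanocyte genes Pmel, Dct and Mlana held 1338, 170 and 17.6 in control and 1124, 132 and 11.8 in ablation. The part of such cells in the ratios of the members was not tested. At the genes of the negative gates the strongest gene-end peak held 637 and 553 normalized reads for Lrig1 and 8.47 and 34.5 for Cd34.

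The members at annotated gene starts are shown first as sequence, because there the lower signal can be set beside the letters of a promoter. Each printed stretch is the part of the 250 bases before a RefSeq gene start (GRCm38.p6, the assembly behind mm10) that lies inside a member, read 5′ to 3′ on the strand of the gene. Capitals mark matches to the motifs searched. The stretches are Slc35f1 chr10:52690259-52690500 on the plus strand, Fggy chr4:95557257-95557506 on the plus strand, Angptl7 chr4:148500508-148500712 on the minus strand, Ceacam19 chr7:19887966-19888143 on the minus strand, Zfp457 chr13:67306413-67306662 on the minus strand, Ahcyl2 chr6:29853491-29853740 on the plus strand, Skint11 chr4:114163134-114163383 on the plus strand, Slc5a1 chr5:33104048-33104218 on the plus strand.
Slc35f1: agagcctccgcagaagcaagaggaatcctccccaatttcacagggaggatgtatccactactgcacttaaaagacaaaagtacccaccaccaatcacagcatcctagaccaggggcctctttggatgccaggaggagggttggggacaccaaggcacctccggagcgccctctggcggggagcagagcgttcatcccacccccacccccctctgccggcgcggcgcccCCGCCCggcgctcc
Fggy: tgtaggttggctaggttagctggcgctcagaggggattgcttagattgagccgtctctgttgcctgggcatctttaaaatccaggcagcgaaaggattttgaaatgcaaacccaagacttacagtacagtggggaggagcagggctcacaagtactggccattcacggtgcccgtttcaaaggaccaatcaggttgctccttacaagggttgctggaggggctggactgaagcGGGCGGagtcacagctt
Angptl7: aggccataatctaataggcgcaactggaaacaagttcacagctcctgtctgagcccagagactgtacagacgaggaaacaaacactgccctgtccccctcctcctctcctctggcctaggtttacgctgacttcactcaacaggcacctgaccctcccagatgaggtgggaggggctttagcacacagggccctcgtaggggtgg
Ceacam19: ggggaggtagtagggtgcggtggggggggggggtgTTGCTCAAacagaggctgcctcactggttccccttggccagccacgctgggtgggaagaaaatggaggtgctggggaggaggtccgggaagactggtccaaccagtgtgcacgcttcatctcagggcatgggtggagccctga
Zfp457: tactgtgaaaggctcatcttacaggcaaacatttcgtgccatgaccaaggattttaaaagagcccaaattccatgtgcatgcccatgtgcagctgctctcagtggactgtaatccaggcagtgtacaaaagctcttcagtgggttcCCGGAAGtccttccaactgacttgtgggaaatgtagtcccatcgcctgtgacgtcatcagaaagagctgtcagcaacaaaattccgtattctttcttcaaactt
Ahcyl2: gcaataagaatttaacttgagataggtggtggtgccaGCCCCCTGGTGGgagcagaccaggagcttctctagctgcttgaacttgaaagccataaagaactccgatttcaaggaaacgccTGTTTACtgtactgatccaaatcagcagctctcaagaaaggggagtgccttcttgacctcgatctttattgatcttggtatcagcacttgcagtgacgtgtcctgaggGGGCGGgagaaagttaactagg
Skint11: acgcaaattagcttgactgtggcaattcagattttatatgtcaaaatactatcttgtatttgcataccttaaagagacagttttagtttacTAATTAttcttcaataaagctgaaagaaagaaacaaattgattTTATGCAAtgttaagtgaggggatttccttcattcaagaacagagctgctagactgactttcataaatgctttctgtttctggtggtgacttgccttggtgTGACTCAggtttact
Slc5a1: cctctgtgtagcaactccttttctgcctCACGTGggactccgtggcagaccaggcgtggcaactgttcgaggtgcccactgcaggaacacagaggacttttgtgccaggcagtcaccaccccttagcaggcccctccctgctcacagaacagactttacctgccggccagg

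Slc35f1, a solute carrier of the nucleotide sugar transporter family, has its start inside a member whose signal was 145 normalized reads in the control library and 67.1 after ablation (2.16-fold lower, 1.64 to 2.85). The start of Fggy, a carbohydrate kinase gene, lay inside a member with 133 and 49.0 normalized reads (2.72-fold lower), from 189 and 54 reads. The stretch before Angptl7, an angiopoietin-like secreted protein whose gene lies within Mtor, belonged to a member with 160 and 64.4 normalized reads (2.49-fold lower, 1.90 to 3.29). It holds no match to the motifs searched, which says only that these letters are not in this window. Skint11, of a family of epidermal and thymic immunoglobulin-like genes, had the lowest ratio of the members at a gene start, with 36.0 and 9.07 normalized reads (3.97-fold lower), from 51 and 10 reads. Its window has a GC content of 35.3%, and the stretch holds an AP-1 match, TGACTCA, close to the start. Skint4 had a further member at a gene end, with 58.6 and 26.3 normalized reads. Skint genes held 2 members among 12 third-run tested peaks (16.7%, 2.09 to 48.4), against 1.06% of all, a grouping made after their values were seen. The starts of Ceacam19 and of the zinc finger gene Zfp457 lay in members that went from 135 to 59.9 and from 102 to 47.2 normalized reads. An annotated start within the gene body of Ahcyl2, whose protein family binds the IP3 receptor, had 64.9 and 29.9 normalized reads, and that of Slc5a1, the intestinal sodium-glucose transporter, 48.0 and 21.8.

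Gene starts were rare among the members, in shares that were not matched for signal. Members had a median mean signal of 36.0 normalized reads, against 82.7 for third-run tested peaks. Windows of 300 bases, from 250 before to 50 after a gene start, were overlapped by 15 of the 681 members outside chromosome 18 (2.20%, 1.24 to 3.61), against 17.5% of third-run tested peaks outside that chromosome, whose windows are not used here.

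The letters of these windows were counted as well, again without matching the peaks for signal. The 16 windows under members held a median of 6.5 CpG dinucleotides, and all 32851 windows a median of 7. The 14410 windows under third-run tested peaks that passed 2-fold in neither direction held 21. The 97 windows under third-run peaks at least 2-fold higher held 10. Median GC content was 52.7% under members, 61.7% under peaks that passed in neither direction, 58% under higher peaks and 52.7% in all windows. The 15 motifs searched on both strands were AP-1 TGANTCA, TP63 CATG and CATG with 6 bases between, GRHL AACCNGTT, TEAD GGAATG, RUNX TGTGGT, ETS CCGGAAG, CEBP TTGCNNAA, CTCF CCANNAGG followed by NGGC, GATA factors AGATAA, SOX ACAATG, homeobox TAATTA, FOX TGTTTAC, SP/KLF GGGCGG, NFI TTGGC and GCCAA with 5 bases between and E-box CACGTG, and matches to different motifs can overlap. The SP/KLF letters were in 7 of the 16 windows (43.8%). They were in 65.6% of windows under peaks that passed in neither direction, 48.5% under higher peaks and 35.7% of all windows. The CEBP letters were in 4 (25%), against 7.83%, 11.3% and 10.8% in that order. Each other motif was in at most 3 of the 16. AP-1 was in 1, against 15.5% of windows under higher peaks and 7.81% of all windows. A match is a description of letters, and with 16 windows these shares carry little precision.

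The members were weak peaks, as were those at least 2-fold higher, with a median mean signal of 36.0 and 36.9 normalized reads. Control signal ran from 19.8 to 586 normalized reads with a median of 50.8, and ablation signal from 4.54 to 273 with a median of 20.9. The reads behind these medians were 72 and 23. Every other third-run tested peak, those at least 2-fold higher set aside, gave medians of 85.4 and 88.0. The members made up 1.06% of third-run tested peaks, where 1.88% of all tested nuclear peaks were at least 2-fold lower, 0.0349% of first-run and 16.1% of second-run peaks. In the other direction 1610 third-run peaks (2.44%) were at least 2-fold higher. The share lower declined with signal, from 2.91% (2.35 to 3.55) of peaks under 20 normalized reads to 0.0415% (0.0167 to 0.0854) of those with 200 or more, where 7 members remained.

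**Figure D1:**
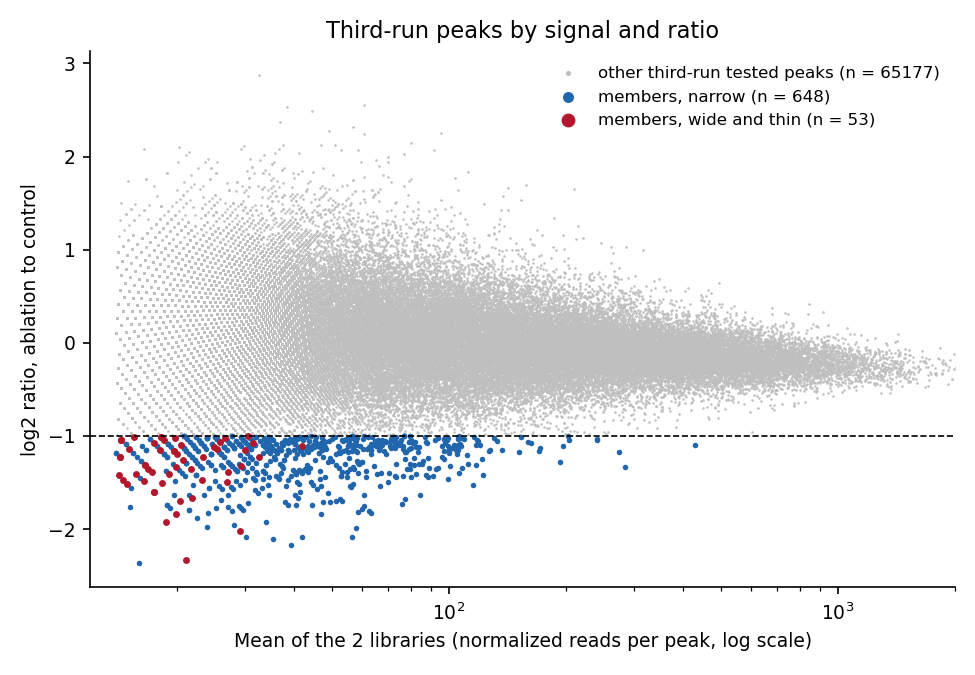
Each point is a third-run tested peak, with the mean signal of both libraries in normalized reads on a log x axis and the log2 ratio of ablation to control on the y axis. The members are the blue and red points under the dashed line at -1, most of them under 100 normalized reads, and the strongest peaks are off the axis.

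Most members lay close to the threshold. The median member was 2.29-fold lower, and the quartiles of the log2 ratio were -1.35 and -1.07. At least 3-fold lower were 63 members, or 0.0956% of third-run tested peaks, and 8 were at least 4-fold lower. The counting interval of the ratio lay wholly below 1 in all 701 and wholly below 0.5 in 45 (6.42%). These intervals come from the reads that chose the members. Those below 1 thus follow largely from the rule and are no added support. Just inside the threshold lay a peak 7868 bp from Bzw2, with 143 and 70.7 normalized reads, and peaks within Plekhg1 and Fbxw4, each with 40.9 and 19.95. Just outside lay peaks within Rbm20, with 69.9 and 34.5, and 29163 bp from Clhc1, with 57.2 and 28.1. These pairs cannot be told apart by their reads.

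The 12 strongest members held between 222 and 586 normalized reads in control. The strongest, within the gene body of the transcriptional repressor Zbtb7c on chromosome 18 at 75891651 to 75892465, had a signal of 586 normalized reads in the control and 273 in the ablation library (2.15-fold lower, 1.88 to 2.46). Of the 45 tested peaks of Zbtb7c 2 were at least 2-fold lower and 2 at least 2-fold higher, so this locus held peaks of both directions. The next was intergenic on chromosome 1 at 112102944 to 112103912, 237892 bp from Dsel, with 406 and 161 normalized reads (2.53-fold lower, 2.13 to 3.01). A member in the gene body of Dchs2, a large protocadherin of the Dachsous family, had 381 and 169 normalized reads. A member 12645 bp from Cyp2b19, a cytochrome P450 of differentiating keratinocytes that acts on arachidonic acid, had 323 and 158, and a second one near Cyp2b23 had 50.8 and 23.6. Among 13 third-run tested peaks of Cyp2b genes 2 were members (15.4%, 1.92 to 45.4) and 1 was at least 2-fold higher, a grouping made after their values were seen. A member at an end of Thbs1, the matrix glycoprotein thrombospondin 1, had 275 and 133 normalized reads. Members in Rora, a nuclear receptor, in the pyrophosphate transporter gene Ank and in Syt1, a calcium sensor of vesicle release, held 275, 236 and 222 normalized reads in control and 112, 107 and 104 in ablation. No protein-coding gene lay within 50 kb of 4 of the 12, the peak near Dsel among them.

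Among members of at least median signal, the lowest ratio belonged to a peak on chromosome 5 at 4773792 to 4774203, 15576 bp from the Wnt receptor gene Fzd1. Its signal was 64.9 and 13.6 normalized reads (4.77-fold lower, 2.75 to 8.87), from 92 and 15 reads. The gene-end peak of Fzd1 held 634 and 557 normalized reads, a log2 ratio of -0.19. Other distal peaks of this gene had log2 ratios of -0.18 and -0.71. The member was picked for its low ratio, so its contrast with these peaks was set by that pick. A member in Fbxo38, an F-box gene, held 91.7 and 20.9 normalized reads (4.40-fold lower, 2.81 to 7.18). Near Zfp72, 8463 bp away, a member held 68.5 and 15.4 (4.44-fold lower, 2.63 to 7.93). In the gene bodies of Ankrd44, Zfp800 and Wdfy4 the members were 4.11-fold, 3.61-fold and 3.58-fold lower. The potassium channel gene Kcnh5 and Stox2 each held one, 3.47-fold and 3.48-fold lower. All these intervals overlap, so the order among them is not resolved by the reads.

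Members lay away from gene ends. At a gene end stood 34 of 701 (4.85%, 3.38 to 6.71), against 21.8% (21.5 to 22.2) of third-run tested peaks that passed 2-fold in neither direction and 7.95% (6.68 to 9.38) of those at least 2-fold higher. In gene bodies lay 330 (47.1%) and between genes 337 (48.1%, 44.3 to 51.8), against 40.9% and 37.3% of the peaks that passed in neither direction and 43.7% and 48.3% of those at least 2-fold higher. No protein-coding gene lay within 50 kb of 164 members (23.4%, 20.3 to 26.7), against 12.1% (11.8 to 12.4) and, for peaks at least 2-fold higher, 21.1% (19.1 to 23.2). For each gene-body peak the length of the longest gene it overlaps was taken, so a gene counts once per peak. The median over members was 121 kb, against 94.3 kb over the peaks that passed in neither direction and 114 kb over the higher ones.

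Strong peaks are more often at gene ends, so the shares were also set side by side at like signal. Between 40 and 60 normalized reads 3.47% (1.14 to 7.92) of members and 10.6% (9.93 to 11.2) of the peaks that passed in neither direction were at gene ends. Between 60 and 100 the shares were 5.88% (2.40 to 11.7) and 13.2% (12.5 to 13.8), and between 100 and 200 they were 7.14% (1.498 to 19.5) and 20.7% (20.01 to 21.5). In those 3 ranges the intervals did not overlap. Between 20 and 30 normalized reads they did, at 5.62% (2.73 to 10.1) and 6.87% (6.28 to 7.49), as they did between 30 and 40. In each range the intervals of members and of third-run peaks at least 2-fold higher overlapped. Peaks that share a locus are not independent, and no test was run over peaks.

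**Figure D2:**
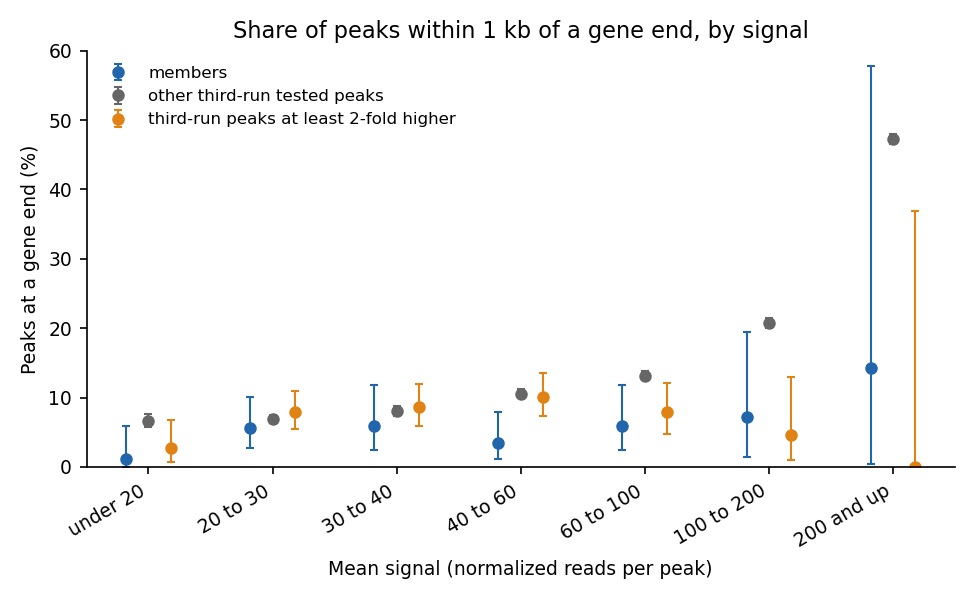
Percent of peaks within 1 kb of a gene end (y axis) in 7 ranges of mean signal in normalized reads (x axis), for members, for third-run peaks at least 2-fold higher and for the other third-run tested peaks. Bars are 95% exact binomial intervals, and the grey points climb with signal to 47.2% while the blue ones stay lower from 40 to 200 normalized reads.

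Members at gene ends lay at genes of several kinds. Krt34, a hair keratin gene, went from 145 to 57.1 normalized reads (2.53-fold lower, 1.90 to 3.41), and a member 137 bp from the hair keratin-associated gene Krtap3-3 from 45.2 to 17.2. Genes whose symbols begin with Krt held 4 members among 169 third-run tested peaks (2.37%, 0.649 to 5.95), within counting error of the background of 1.06%. At Btla, an inhibitory receptor of lymphocytes, values were 128 and 47.2 normalized reads (2.71-fold lower, 1.98 to 3.76). At Creg1, a secreted glycoprotein of lysosomes, they were 103 and 50.8, and near Slbp, which binds histone mRNA, 85.4 and 41.7. Members at ends of Ttc7b and Plpbp were 2.77-fold and 2.91-fold lower. Smad2, a transducer of TGF-beta and activin signals, had a member 299 bp from a gene end with 62.1 and 23.6 normalized reads (2.63-fold lower, 1.68 to 4.25).

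Gene-end peaks of genes with a member elsewhere were slightly more often below a ratio of 1 than those of all genes. Among 399 genes with a member and a tested gene-end peak that was no member, the strongest such peak had a median log2 ratio of -0.12, and 277 (69.4%, 64.6 to 73.9) were below a ratio of 1. Over all 13608 genes with such a peak the median was -0.08 and 63.5% (62.7 to 64.3) were below 1. For 830 genes with a third-run peak at least 2-fold higher the median was 0.03 and 46.9% (43.4 to 50.3) were below 1. In 96.0% of the genes with a member this peak lay within 1.5-fold of control, as it did in 94.4% of all genes.

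The 537 members with a protein-coding gene in reach were assigned to 509 genes, and 478 of these held 1 member. Only 3 genes held 3 or more, under the assignment to overlapping genes or else to the nearest within 50 kb. Slc35f1 held 5 members among 16 tested peaks, 11 of them third-run peaks, which alone can be members. Another 3, of the second run, were at least 2-fold lower, as were 16.1% of all second-run peaks, and none was at least 2-fold higher. Its summed signal over all tested peaks was 861 normalized reads in control and 462 in ablation. Beside the peak at the gene start, the members at 52918123 to 52918958 and 52936553 to 52937292 of chromosome 10 had 99.5 and 135 normalized reads in control, against 33.6 and 57.1. Its other members went from 34.6 to 16.3 and from 43.8 to 19.95. Pla2g4a, the cytosolic phospholipase A2 that frees arachidonic acid from membranes, held 3 members among 8 tested peaks, 7 of them third-run. All its members lay in its gene body. They went from 88.9 to 33.6, from 49.4 to 15.4 and from 45.9 to 21.8 normalized reads, while its gene-end peak held 192 and 132. Mtus1 held 3 among 25 tested peaks, 23 of them third-run. Its summed signal was 1914 and 1667 normalized reads, so its other peaks carried most of the signal.

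Near Ryr2, the calcium release channel of muscle and neurons, 2 members stood 3340 and 12379 bp from the gene. They went from 93.1 to 26.3 normalized reads (3.54-fold lower, 2.35 to 5.49) and from 117 to 34.5. The gene-end peak of Ryr2, with 13.4 and 29.9 normalized reads, was higher after ablation, so the locus did not move one way. A further 27 genes held 2 members, among them Kcnk2, Atp10b, Cdh13, Rgs6 and Tox2.

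**Figure D3:**
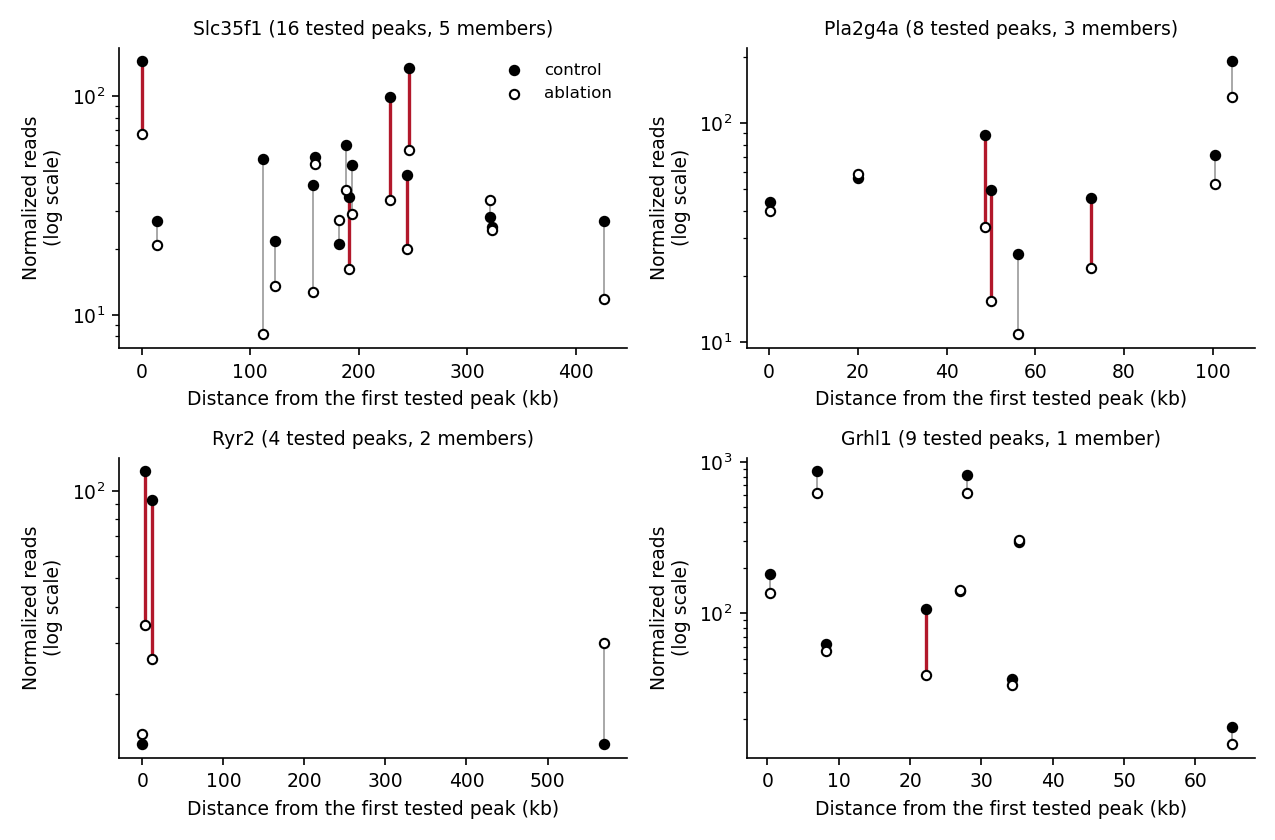
Signal of every tested peak assigned to 4 genes, in normalized reads on a log y axis, at its distance in kb from the first tested peak of the gene. Filled circles are control, open circles ablation, and red lines join the values of members; at Slc35f1 5 of 16 peaks are members, while at Grhl1 1 of 9 is and the strongest peaks keep most of their signal.

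Members at genes of the keratinocyte programme were counted by lists written from textbook knowledge. Of 204 third-run tested peaks of 21 keratinocyte transcription factor genes 4 were members (1.96%, 0.537 to 4.94) and 1 was at least 2-fold higher, where 1.06% of all third-run tested peaks were members. The share is within counting error of the background. The 4 were at Mecom and at each of the Grhl1, Grhl2 and Grhl3 genes, whose grainyhead-like products drive epidermal barrier genes. The Mecom member, in the gene body of this regulator of stem cells, held 128 and 40.8 normalized reads (3.15-fold lower, 2.26 to 4.46). A second-run peak about 1 kb away from it held 21.9 and 9.98, and the gene-end peak 62.1 and 56.2. The Grhl1 member held 107 and 39.0 (2.75-fold lower, 1.95 to 3.95), between gene-body peaks with log2 ratios of -0.14 and 0.01. The Grhl3 member, 38918 bp from the gene, held 83.3 and 33.6 (2.48-fold lower, 1.70 to 3.69), and the Grhl2 member 40.2 and 19.0 (2.11-fold lower, 1.26 to 3.67). Gene-end peaks of the 3 Grhl genes had log2 ratios of -0.47, -0.33 and 0.17. The 3 Grhl members were 3 of 50 third-run tested peaks of these genes, a grouping made after their values were seen.

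Genes of differentiated layers held 4 members. The member 1211 bp from Krt2, a suprabasal keratin gene, held 128 and 49.9 normalized reads (2.57-fold lower, 1.89 to 3.55). The gene-end peaks of Krt2 held 106 and 68.0, 45.9 and 27.2, and 96.0 and 37.2. The first of them was third-run and the others second-run. The member 1277 bp from Krt10, the keratin of spinous cells, held 80.4 and 35.4 (2.27-fold lower, 1.57 to 3.36), beside gene-end peaks with log2 ratios of -0.52 and 0.33. Within Tgm3, a transglutaminase of cornification, a member held 64.2 and 26.3, and 24464 bp from Casp14, a caspase of cornified cells, 29.6 and 12.7. These were 2 of 81 spinous (2.47%, 0.300 to 8.64) and 2 of 74 granular and cornified third-run tested peaks (2.70%, 0.329 to 9.42), within counting error of the background of 1.06%. The basal list had 2 of 223 (0.897%, 0.109 to 3.20), within Lama3, the laminin α3 chain, with 52.9 and 20.9 normalized reads, and 44308 bp from Itga6, with 76.9 and 33.6.

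Signalling lists were counted in the same way. Members numbered 2 of 225 Wnt peaks (0.889%), at Fzd1 and, with 68.5 and 33.6 normalized reads, Fzd10. They numbered 2 of 183 TGF-beta and BMP peaks (1.09%), at Smad2 and, with 42.3 and 17.2, the ligand gene Bmp4. The AP-1 list had 1 of 84 (1.19%), a peak 723 bp from Fosl2 with 53.6 and 25.4 normalized reads. The strongest gene-end peak of Fosl2 held 1392 and 1243. All these shares are within counting error of the background of 1.06%. No member lay among 146 desmosome and adherens junction peaks, 161 EGF receptor family peaks, 141 Notch peaks, 167 actomyosin and focal adhesion peaks and 64 upper follicle and sebaceous gland peaks. The intervals of these shares reach at least 2.18%, so a count of 0 is not set apart from the 1.06% of the background. The hair follicle stem cell list had 1 of 111 (0.901%), in Nfib, with 22.6 and 7.26 normalized reads. The EMT list had 1 of 33 (3.03%, 0.0767 to 15.8), 28302 bp from Snai2, with 45.9 and 19.0. That peak spans 3326 bp at 9.76 normalized reads per kb and is of the wide thin group described below. In the other direction 5 of the 33 EMT peaks (15.2%) were at least 2-fold higher, against 2.44% of all third-run tested peaks. The inflammation list had 1 of 123 (0.813%), 9011 bp from the chemokine gene Ccl20, with 30.3 and 11.8. The member shares of these lists too are within counting error of the background. Of the lists of other cell types, melanocyte, Langerhans and myeloid, T cell and fibroblast genes had no member among 19, 9, 23 and 8 peaks. The upper limits of these shares are 17.6%, 33.6%, 14.8% and 36.9%, so so few peaks cannot set 0 apart from the background. The endothelial list had 1 of 42 (2.38%, 0.0603 to 12.6), 46202 bp from Erg, with 69.2 and 22.7.

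A separate group among the members was wide and thin. It was set apart after its values were seen, as peaks of at least 1500 bp with a mean below 20 normalized reads per kb. Such peaks stood apart from the rest by shape: of third-run tested peaks of at least 2000 bp, 75 had under 10 normalized reads per kb, 22 had 10 to 20, 5 had 20 to 50, 25 had 50 to 100 and 451 had more. Of the 156 wide thin third-run tested peaks 53 (34.0%, 26.6 to 42.0) were members. Of the 2814 equally wide peaks with more signal per kb 1 was, and of the 16796 narrower peaks with a mean under 40 normalized reads 2.01% were. The wide thin peaks had a median log2 ratio of -0.79, and 142 of 156 were below a ratio of 1, while the weak narrower peaks had a median of 0.13. The 103 wide thin peaks that were no members had a median of -0.59, with 89 below 1. A further 77 such peaks under the signal minimum, which the rule did not use, had a median of -0.58, with 69 below 1. The summed signal of the 156 tested wide thin peaks, 53 of them chosen by their ratio, over 373 kb, with a mean length of 2389 bp, was 4230 normalized reads in control and 2492 in ablation, a ratio of 0.589.

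The wide thin members lay far from genes, a trait shared by wide thin peaks that were no members. Of all 156 tested wide thin peaks 126 (80.8%) were intergenic, as were 85.7% of the 77 under the signal minimum. Of the 53, 45 (84.9%, 72.4 to 93.3) were intergenic, against 45.1% (41.2 to 49.0) of the 648 other members, and 29 (54.7%, 40.4 to 68.4) had no protein-coding gene within 50 kb, against 20.8%. Their median length was 2253 bp, against 484 bp, and their median control signal 27.5 normalized reads, against 54.3. The strongest, on chromosome 6 at 66822728 to 66825989, was 17396 bp from the vomeronasal receptor gene Vmn1r39 and held 57.9 and 26.3 normalized reads (2.20-fold lower). Olfactory and vomeronasal receptor genes, which are expressed in the nose and lie in large clusters, were assigned, within the limit of 50 kb, to 4 wide thin members and to 0 of the other 648, which allows a share of up to 0.568%. Of all 156 wide thin peaks 10 were assigned to such a gene, and over third-run tested peaks the share was 0.137%. The lowest ratio, on chromosome 17 at 68689937 to 68692656 within L3mbtl4, came from 36.0 and 6.35 normalized reads. The longest member, on the X chromosome at 88678544 to 88682482, spanned 3938 bp and was 562596 bp from the nearest protein-coding gene, with 24.7 and 9.07 normalized reads. Repeat content and the handling of reads that map to several places were not examined, and their part in these values was not tested.

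**Figure D4:**
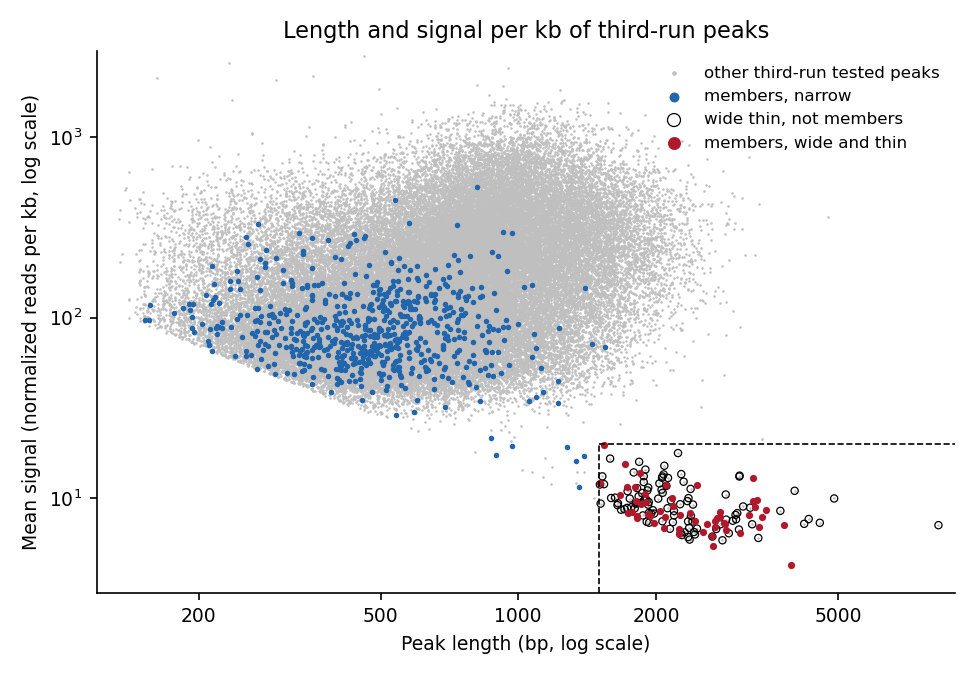
Peak length in bp (x axis) against mean signal in normalized reads per kb (y axis) of third-run tested peaks, both on log scales. The wide thin peaks fill the dashed corner under 20 normalized reads per kb and beyond 1500 bp as a separate cloud, with 53 members in red and 103 peaks that are no members as open circles; the few densest peaks are off the axis.

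At the main signal minimum the X chromosome held more than its share of members. Of its 1296 third-run tested peaks 34 were members (2.62%, 1.82 to 3.65), against 667 of 64571 on autosomes (1.03%, 0.956 to 1.11), and 13 of the 34 were wide and thin. Without wide thin peaks the shares were 1.66% (1.03 to 2.52) on the X chromosome and 0.973% (0.899 to 1.05) on autosomes, whose intervals overlap. Between autosomes the share ran from 0.665% on chromosome 7 to 1.69% (1.27 to 2.20) on chromosome 13. Moving with the X share, the median log2 ratio of third-run tested peaks was -0.11 on the X chromosome, 0.16 over 11 peaks on the Y chromosome, and between -0.05 and 0.00 on autosomes. The part of this in the X share was not tested. Wide thin peaks were not confined to the X chromosome, as 40 of 127 on autosomes were members.

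**Figure D5:**
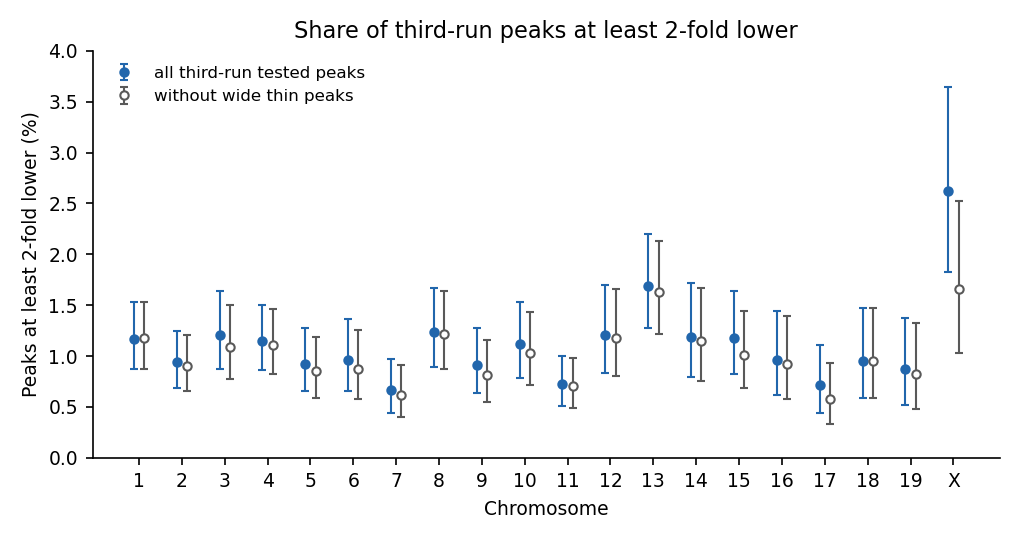
Percent of third-run tested peaks that were members (y axis) on each chromosome except Y (x axis), with 95% exact binomial intervals. Filled points cover all third-run tested peaks and open points leave out wide thin peaks; the X chromosome stands at 2.62% and 1.66%.

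Peaks near the members were more often below a ratio of 1 than tested peaks at large. Of the 919 other tested peaks within 10 kb of a member 640 (69.6%, 66.6 to 72.6) had a ratio below 1, against 51.3% of all tested peaks, with a median log2 ratio of -0.19 against -0.01. At 50 kb the share was 62.9%, and at 100 kb the median was -0.10. Around third-run peaks at least 2-fold higher, 28.2% of peaks within 10 kb were below 1. Of the 86 second-run peaks within 10 kb of a member 33 (38.4%) were at least 2-fold lower, against 16.1% of all second-run peaks. Another member lay within 10 kb of 35 members (4.99%), and a member lay that near to 1.24% of the peaks that passed 2-fold in neither direction. No other tested peak lay within 10 kb of 243 members. These ratios come from the same 2 libraries as the rule and are given as a description.

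The number of members rests on how the libraries are scaled. As deposited, 69.7% of third-run peaks past 2-fold were higher after ablation. Dividing each library by its reads in all peaks, mitochondrial ones included, moved the median log2 ratio by -0.34 and gave 2822 third-run peaks lower and 456 higher (13.9% higher). Centring on strong gene-end peaks moved it by 0.17 and gave 328 lower and 2918 higher (89.9% higher). After a loess correction of the ratio for signal there were 1112 lower and 1043 higher (48.4% higher). Of the 701 members, 328 stayed at least 2-fold lower with centring and 695 with loess.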

How the data were processed

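Signal was measured in 2 libraries, and the authors deposited it as 1 table of peaks with normalized reads for each. Named in the submitters' processing notes are HTSeq, MACS2 (2.1.0.20151222), Picard, Bowtie2 (2.3.4.2) and Trimmomatic, and build mm10. What each did, the scaling method and how peaks were selected or put in runs is not given in the sources used here. All values were whole multiples of 1 step per library, within 0.1 of a read (0.706 and 0.907 normalized reads), so whole reads were recovered and used for intervals. A floor of 3 reads equals 2.12 and 2.72 normalized reads. Columns were matched to samples by name, as the only control and the only other library. The number in the control column is not that of its sample title. Unused sample columns numbered 0.

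Exact repeats among 116411 rows were dropped and 3 mitochondrial peaks left out. Whether starts count from 0 or 1 is not stated. Gene positions (21900 protein-coding genes) are those of RefSeq on GRCm38.p6, as are the windows at gene starts. A motif search over whole peaks needs a genome, not used here, and windows at gene starts took its place.

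No test between conditions was possible with 1 library per group, and no count model was fitted. Named members are the 12 strongest, the 12 lowest ratios of at least median signal, members at gene ends, genes with 3 or more members, members of listed genes and peaks next to the threshold, not all of which are printed. Wide thin peaks, window members, Ryr2 and other loci were added after values were seen. Members, lists and rules were chosen with earlier results of these data known. Alternatives covered fold, scaling, pseudocount, signal filter, gene-end distance and neighbour distance. Versions were matplotlib 3.10.9, statsmodels 0.14.6, scipy 1.17.1, pandas 2.3.3 and numpy 2.4.6 on Python 3.11.15.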

Additional observations from a re-analysis of the deposited data

Results flagged for a closer look

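Peaks on mitochondrial DNA, set aside in all comparisons above, are given here because their share was larger after ablation than in control. They held 31.2% of peak reads in the ablation library (31.2 to 31.3) and 7.31% in control (7.30 to 7.32).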

How the results depend on the processing

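No paired analysis was possible because the groups share 1 replicate number and hold 1 library each. The motif share over whole peaks was not run. The number of members, 701, was 3902 at 1.5-fold, 63 at 3-fold, 435 with a pseudocount of 5, 2822 with division by reads in all peaks, 328 with centring on strong gene-end peaks and 1112 with loess. The matching shares of third-run tested peaks were 5.92%, 0.0956%, 0.660%, 4.28%, 0.498% and 1.69%, with 0.911% for a filter at the 25th percentile and 0.986% without wide thin peaks. Genes with 2 or more members, 31, numbered 542, 1, 15, 324, 9 and 67 in that order. The gene-end share was 3.17% at 3-fold and 7.70% with gene ends taken within 2 kb, and the intergenic share 55.6% at 3-fold. The X share of members, 4.85%, was 2.84% at 1.5-fold, 7.94% at 3-fold and 2.98% with division by reads in all peaks. It was 2.75% (1.55 to 4.49) with the filter at the 25th percentile and 3.24% without wide thin peaks. Of third-run tested peaks at the main signal minimum 1.97% lay on the X chromosome, inside the interval for the 25th percentile. The share of neighbours below a ratio of 1 was 62.9% within 50 kb, 60.003% within 100 kb and 63.5% at 1.5-fold. It was 86.6% with division by reads in all peaks, where 76.0% of all tested peaks were below 1, and 50.6% with centring on strong gene-end peaks, where 33.9% were. The share of wide thin peaks that were members ran from 5.13% at 3-fold to 67.3% at 1.5-fold. Leaving out wide thin peaks was chosen after seeing the data. Depth limits single members, of which 45 have counting intervals wholly below a ratio of 0.5, from the same reads that chose them.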
